A study of Mus musculus with 9 samples.

Results

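The 10 genes described are receptor tyrosine kinases of fibroblasts and the growth factors that bind such receptors. They were chosen by name from the 15184 genes of the table, and all 10 were present. The 6 receptors are Pdgfra and Pdgfrb (the receptors of platelet-derived growth factor, PDGF), Fgfr1 and Fgfr2 (receptors of fibroblast growth factor, FGF), Egfr (the epidermal growth factor receptor) and Met (the receptor of hepatocyte growth factor). The 4 ligands are Pdgfa, Pdgfc, Fgf2 and Fgf7.

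A growth factor brings receptor chains together in pairs, the kinase domains phosphorylate each other, and adaptor proteins then start the Ras-ERK, PI3K-AKT and phospholipase C pathways. In fibroblasts these receptors are known for control of division, migration and matrix production. PDGF-AA and PDGF-CC bind chiefly the alpha receptor, whereas PDGF-BB binds both PDGF receptors. FGF2 binds the splice forms of FGF receptors that mesenchymal cells make, and FGF7, also called keratinocyte growth factor, is made by mesenchymal cells and binds the epithelial splice form of FGFR2. Gene counts do not separate these splice forms.

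PolyA RNA of mouse embryonic fibroblasts (MEFs) was sequenced in 9 libraries. The 3 control libraries came from MEFs with empty vector. The other 6 were labelled Hnrnpk SAM and fell under the names SAM1 (3 libraries) and SAM2 (3 libraries), which are treated as separate lines. The study asked how raising the RNA-binding protein HNRNPK changes these cells. Wild-type MEFs from mid-gestation embryos were given, by lentivirus, the synergistic activation mediator system, which is a Cas9 without cutting activity that carries transcription activators and is led to a promoter by a guide RNA, and were then selected with blasticidin and hygromycin. By the methods of the study, different guides against Hnrnpk were used, each on its own, and the vector with a non-targeting guide was a control. Whether the libraries labelled empty vector carried that guide is not stated. Which guide each line carried, and whether the replicates were separate cultures, is not given in the sources used here. The p-values therefore measure the spread between these libraries, which may be technical.

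The targeted gene was checked first. Hnrnpk had 25773 ± 621 normalized counts in empty vector (mean ± SD, n = 3), 23922 ± 264 in SAM1 and 26563 ± 321 in SAM2. Its log2 fold change against empty vector was -0.11 in SAM1 (limma adjusted p = 0.00252) and 0.04 in SAM2 (limma adjusted p = 0.159), so the libraries labelled SAM were not separated from the controls by a higher level of Hnrnpk RNA. The lines are therefore named by their labels. The study itself reported higher Hnrnpk RNA by qRT-PCR and more HNRNPK protein by Western blot in its SAM MEFs. Protein was not measured in these libraries. Reads could be recovered from the normalized counts in 8 libraries, which held 41759636 to 49026626 reads on the listed genes. Of the fibroblast markers, 10 of 10 were in the table, among them Col1a1, Col3a1 and Vim. The fibroblast marker Dcn fell from 11815 ± 292 normalized counts in empty vector to 2713 ± 29.2 in SAM1 and 2538 ± 65.6 in SAM2. S100a4 rose from 12963 to 31914 in SAM1, and Col1a1 from 221562 to 290176 in SAM2. Of the 10, 7 were lower and 2 higher in SAM1, where 36.9% of all genes were lower and 37.3% higher. In SAM2, 4 were lower and 2 higher, beside 35.3% and 35.2% of all genes. The epithelial markers Epcam, Krt18, Krt5 and Krt14 and the haematopoietic markers Ptprc, Adgre1 and Itgam were not in the table. The other epithelial markers (3) and haematopoietic markers (4) were in it, among them Cldn4 and Cd74. Their sums are given further on. In bulk RNA, fewer cells of a type and less RNA per cell cannot be told apart.

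Upstream sequence was taken from RefSeq, whose table held 8 of the 10 genes in 9 windows of 250 bases before the first transcribed base. Each window matched GRCm39 once. Fgfr1 and Pdgfrb were not among the 8. The windows were searched on both strands for TGANTCA, the AP-1 motif that stands downstream of growth factor signalling, for GGGCGG, the GC box bound by Sp1, and for CCCTCCC, the CT element, a kind of sequence that HNRNPK is known to bind. The GC box and the reverse complement of the CT element can share guanines at their ends. The motifs were present in 5.10%, 55.7% and 25.5% of the 14248 upstream windows of genes in the table.

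The windows of Fgf7, which like Fgf2 is a ligand that rose in both lines, and of Pdgfra, the receptor that fell in both, held none of the motifs. They are shown whole, 5′ to 3′ on the plus strand, because these genes had the largest rise and the largest fall among those whose window lies wholly outside the canonical transcript. Only the windows of Fgf7, Pdgfra and Fgfr2 lie so, and of these genes Fgf7 alone rose in both lines.
Fgf7, GRCm39, chr2:125876328-125876577: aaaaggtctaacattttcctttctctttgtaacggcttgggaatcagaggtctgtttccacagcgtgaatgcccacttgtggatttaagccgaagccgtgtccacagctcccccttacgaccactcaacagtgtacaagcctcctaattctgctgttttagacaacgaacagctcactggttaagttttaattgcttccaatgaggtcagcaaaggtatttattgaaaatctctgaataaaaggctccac
Pdgfra, GRCm39, chr5:75312662-75312911: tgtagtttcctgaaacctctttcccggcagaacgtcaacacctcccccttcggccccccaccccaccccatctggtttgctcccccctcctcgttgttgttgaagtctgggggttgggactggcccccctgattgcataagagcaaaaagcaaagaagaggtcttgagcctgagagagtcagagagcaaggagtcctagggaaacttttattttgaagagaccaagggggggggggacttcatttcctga
The Fgf2 window held 1 GC box and 1 CT element. Fgf2 had the largest change of the 10 genes, so the CT element is shown with 10 bases on each side. Capitals mark the motif, and the stretch lies within the first exon of the canonical transcript in the GENCODE annotation.
Fgf2, GRCm39, plus strand, chr3:37402575-37402601: ctgacttgatCCCTCCCcagttcagac

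Among the other genes, the Met window held 1 AP-1 motif and 3 GC boxes. One Pdgfa window held 1 GC box and 1 CT element, and the other held 2 GC boxes and 1 CT element. Egfr had 1 GC box, and the windows of Pdgfc and Fgfr2 held none of the motifs. By the GENCODE annotation, both Pdgfa windows lie wholly within the span of the canonical transcript, ending 1400 and 737 bases past its start. The windows of Met, Pdgfc and Egfr end 207, 55 and 5 bases past that start. GC content ranged from 43.6% in the Fgf7 window to 74.0% in the Met window, beside a median of 59.6% over the windows of genes in the table. A match is a description of the letters and says nothing of binding.

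Tests of single genes were made with limma on log2(normalized count + 1), with p adjusted over all 15184 genes and a threshold of 0.05. In SAM1, 4 of the 10 genes were higher and 5 were lower than in empty vector, where 37.3% of all genes were higher and 36.9% lower. In SAM2, 4 were higher and 3 lower, against 35.2% and 35.3% of all genes. Between the lines, 3 were higher and 5 lower in SAM2 than in SAM1, against 31.1% and 29.2% of all genes. With the 6 SAM libraries pooled, as the study grouped them, 3 were higher (Fgf2, Fgf7 and Pdgfrb) and 3 lower (Pdgfra, Pdgfa and Pdgfc), against 26.8% and 27.0% of all genes. More than 1 gene in 4 was called in each direction, so a call by itself does not set these genes apart, and the sizes of the changes are given for each. Both lines were compared with the same 3 control libraries.

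Scaling each library to the same total, in place of the size factors of the authors, raised the median log2 fold change of all genes to 0.15 in SAM1, 0.10 in SAM2 and 0.13 in the pooled comparison. The split of higher and lower genes then moved from 5667 and 5608 to 7232 and 4101 in SAM1, from 5340 and 5359 to 6555 and 4131 in SAM2, from 4722 and 4440 to 4090 and 5079 between the lines, and from 4076 and 4103 to 5344 and 2838 in the pooled comparison. Calls lost under equal totals are given with their values.

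**Figure D1:**
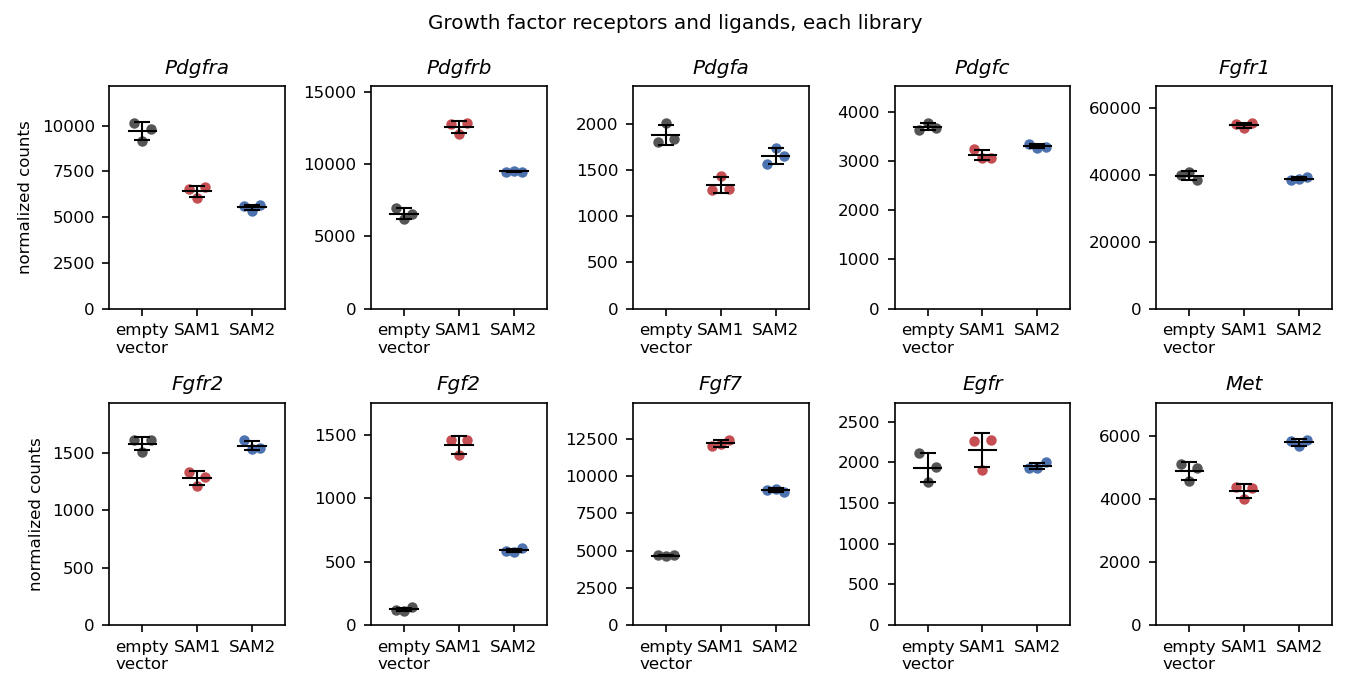
Normalized counts (vertical axes, each starting at 0) of the 10 genes in the 3 libraries of empty vector, SAM1 and SAM2. Points are libraries, and the bars give the mean and SD. Fgf2 went from 110.3 to 139 normalized counts in empty vector to 1340.0 to 1464 in SAM1, and the groups of Pdgfra, Pdgfrb and Fgf7 did not overlap either.

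Fgf2 and Fgf7, the FGF ligands of the set, rose in both lines, Fgf2 by 11.5-fold in SAM1 and 4.78-fold in SAM2 and Fgf7 by 2.62-fold and 1.94-fold. Fgf2 encodes basic FGF, a heparin-binding mitogen that leaves cells without a signal peptide. Its normalized counts were 121, 110.3 and 139 in empty vector, 1464, 1340.0 and 1457 in SAM1, and 586, 577 and 604 in SAM2. Every SAM1 library was above every SAM2 library, and every SAM2 library was above every control. The log2 fold change was 3.52 ± 0.08 (SE) in SAM1 (limma adjusted p = 2.27e-13) and 2.25 ± 0.08 in SAM2 (limma adjusted p = 2.50e-11). Of all genes, 211 had a larger absolute log2 fold change in SAM1, and 393 in SAM2. SAM2 was lower than SAM1 by a log2 difference of -1.27 (95% interval -1.43 to -1.10, limma adjusted p = 1.41e-08). The low values of the controls rested on 105 to 119 recovered reads a library, against 1357 to 1542 in SAM1.

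Fgf2 shares 3073 bases, 44.9% of its merged exons, with Nudt6 on the opposite strand. The library kit keeps the strand, but the strand setting of the counting is not given in the sources used here. Nudt6 itself stood at 78.6, 114.6 and 99.8 normalized counts in empty vector, SAM1 and SAM2, with log2 fold changes of 0.53 (limma adjusted p = 0.00127) and 0.34 (limma adjusted p = 0.0217). These means and changes were smaller than those of Fgf2 in both lines. The part of shared exon reads in the Fgf2 values was not tested.

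Fgf7 encodes a secreted factor of the stroma. Its normalized counts were 4688, 4613 and 4681 in empty vector, 12049, 12141 and 12471 in SAM1, and 9096, 9161 and 8915 in SAM2. Replicates lay close together, with an SD of 41.4 around a mean of 4661 in empty vector, and the groups did not overlap. This was a log2 fold change of 1.39 ± 0.03 in SAM1 (limma adjusted p = 6.79e-14) and 0.96 ± 0.03 in SAM2 (limma adjusted p = 3.79e-12), with SAM2 lower than SAM1 by -0.43 (95% interval -0.49 to -0.37, limma adjusted p = 1.68e-08). For both FGF ligands SAM1 was the highest group and SAM2 the middle one.

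The ratio of the ligands fell, as Fgf2 rose by more than Fgf7. Fgf7 had 38.1 ± 4.13 times the normalized counts of Fgf2 in empty vector, 8.62 ± 0.417 times in SAM1 and 15.4 ± 0.573 times in SAM2 (mean ± SD over 3 libraries). The library ranges did not overlap. For a single ratio, 3 libraries against 3 cannot give an exact two-sided permutation p below 0.1, so no p is given for ratios.

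Fgfr1, the main FGF receptor of mesenchymal cells, separated the lines. The libraries held 40049, 40870.4 and 38388 normalized counts in empty vector, 55164, 53989 and 55523 in SAM1, and 38574, 38720.1 and 39389.6 in SAM2. The SAM1 libraries were above all others, and the SAM2 libraries overlapped the controls. The log2 fold change in SAM1 was 0.47 ± 0.03 (limma adjusted p = 6.67e-09). In SAM2 it was -0.03 (95% interval -0.09 to 0.03, limma adjusted p = 0.343), and this value turned positive and passed the threshold under quantile normalization (0.17, limma adjusted p = 8.84e-05) and under equal totals (0.07, limma adjusted p = 0.0353). SAM2 was lower than SAM1 by a log2 difference of -0.50 (95% interval -0.56 to -0.43, limma adjusted p = 9.79e-09).

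Fgfr2, which is best known from epithelia in its FGF7-binding form, showed the opposite order. It had 1615, 1512 and 1607 normalized counts in empty vector, 1336, 1213 and 1290.1 in SAM1, and 1609, 1537 and 1543 in SAM2. All SAM1 libraries were below the others. The log2 fold change was -0.30 ± 0.04 in SAM1 (limma adjusted p = 3.91e-05) and -0.01 in SAM2 (95% interval -0.11 to 0.08, limma adjusted p = 0.805), a value that was positive under equal totals (0.09). SAM2 was higher than SAM1 by 0.29 (95% interval 0.19 to 0.39, limma adjusted p = 0.000102). Fgfr2 shares 314 bases, 2.77% of its merged exons, with Ctbp2 on the same strand. Fgfr1 had 25.2 ± 1.63 times the normalized counts of Fgfr2 in empty vector, 42.9 ± 1.62 times in SAM1 and 24.9 ± 0.817 times in SAM2. Fgf7 stood at 2.96 ± 0.0838, 9.56 ± 0.506 and 5.80 ± 0.154 times the normalized counts of Fgfr2 in the same order of groups.

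The PDGF receptors moved in opposite directions in both lines. Pdgfra, a marker of mesenchymal progenitors that binds all PDGF chains but PDGF-DD, fell. Counts after normalization were 10143, 9161 and 9825 in empty vector, 6535, 6038 and 6636 in SAM1, and 5593, 5359 and 5651 in SAM2. No library of one group reached the range of another, and SAM2 was the lowest. This gave log2 fold changes of -0.60 ± 0.04 in SAM1 (limma adjusted p = 3.60e-08) and -0.81 ± 0.04 in SAM2 (limma adjusted p = 2.37e-09). The line difference was -0.21 (95% interval -0.30 to -0.11, limma adjusted p = 0.0011).

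Pdgfrb, the receptor of PDGF-BB that is strongly expressed by pericytes and smooth muscle precursors, rose. It had 6966, 6211 and 6530.4 normalized counts in empty vector, 12765, 12109.7 and 12856 in SAM1, and 9489.5, 9551 and 9497 in SAM2. The groups did not overlap, and SAM1 was the highest. In log2 terms it rose by 0.94 ± 0.04 in SAM1 (limma adjusted p = 1.16e-10) and 0.54 ± 0.04 in SAM2 (limma adjusted p = 4.56e-08), with a line difference of -0.40 (95% interval -0.49 to -0.32, limma adjusted p = 1.48e-06). Pdgfrb had 0.676 ± 0.0111 times the normalized counts of Pdgfra in empty vector, 1.97 ± 0.0358 times in SAM1 and 1.72 ± 0.0546 times in SAM2. The receptor with more counts thus changed from Pdgfra in the controls to Pdgfrb in both lines. This is a statement on counts, which also depend on transcript length.

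Pdgfrb is also read as a mark of mural cells. Of the 6 other mural markers examined, 5 were higher in SAM1 and 1 lower, and 5 were higher in SAM2, beside 37.3% and 35.2% of all genes higher in these lines. Their summed level was 59308 to 63028 normalized counts in empty vector, 111951 to 120285 in SAM1 and 94729 to 96168 in SAM2. This was the same order of groups as Pdgfrb, but the sum came mostly through Acta2 and Tagln. Acta2 had 24379, 64320 and 55576 normalized counts in empty vector, SAM1 and SAM2, and Tagln had 33641, 46132 and 36042. Rgs5 and Myh11 had few counts, with their highest means of 87.6 and 16.5 in SAM1. Acta2, smooth muscle actin, had log2 fold changes of 1.40 (limma adjusted p = 3.24e-13) and 1.19 (limma adjusted p = 2.68e-12). Notch3 went down in SAM1 by -0.48 (limma adjusted p = 0.000166) and up in SAM2 by 1.45 (limma adjusted p = 4.47e-09). The part of other cell types in the receptor values was not tested.

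Both PDGF ligands of the set were lower in the SAM libraries. Pdgfa, which encodes the A chain, had 1805, 2007 and 1832 normalized counts in empty vector, 1284, 1431 and 1293 in SAM1, and 1569.6, 1741 and 1653 in SAM2. The groups did not overlap, with SAM2 in the middle. Against empty vector the log2 fold change was -0.49 ± 0.06 in SAM1 (limma adjusted p = 3.00e-06) and -0.18 ± 0.06 in SAM2 (limma adjusted p = 0.00963). The SAM2 call was lost under equal totals (-0.08, limma adjusted p = 0.232), with DESeq2 (-0.15, adjusted p = 0.0614) and without SAM2 replicate 1 (-0.15, limma adjusted p = 0.0536). SAM2 was higher than SAM1 by 0.31 (95% interval 0.19 to 0.43, limma adjusted p = 0.000359).

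Pdgfa shares 2552 bases, 37.7% of its merged exons, with the antisense transcript gene 6330403L08Rik. That gene fell from 1458 normalized counts in empty vector to 734 in SAM1 and 758 in SAM2 (log2 fold changes -0.99 and -0.94, limma adjusted p = 1.79e-08 and 3.83e-08). The part of shared reads in the Pdgfa values was not tested.

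Pdgfc encodes a ligand that proteases must cut before it binds. It had 3636, 3777 and 3687 normalized counts in empty vector, 3252, 3076 and 3076 in SAM1, and 3351, 3273 and 3287 in SAM2. Both lines were below the controls and lay close to each other. Its log2 fold change was -0.24 ± 0.03 in SAM1 (limma adjusted p = 1.73e-05) and -0.16 ± 0.03 in SAM2 (limma adjusted p = 0.00054), and the SAM2 call was lost under equal totals (-0.06, limma adjusted p = 0.115). The lines differed by 0.08 (95% interval 0.01 to 0.15, limma adjusted p = 0.0585), and this difference passed the threshold without SAM1 replicate 1 (0.10, limma adjusted p = 0.0242) and without Empty replicate 2 (limma adjusted p = 0.049). Pdgfc had 1.97 ± 0.0762 times the normalized counts of Pdgfa in empty vector, 2.35 ± 0.192 times in SAM1 and 2.00 ± 0.128 times in SAM2.

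Egfr did not pass the threshold in any comparison of the main fit, which had no term for the replicate number. With the replicate number as a block it passed in SAM1 and between the lines, as given in the last section. Its normalized counts were 2116, 1753 and 1938 in empty vector, 2259, 1905 and 2280.3 in SAM1, and 1929.6, 1933 and 2003 in SAM2, with overlap between all groups. Log2 fold changes were 0.15 in SAM1 (95% interval -0.01 to 0.31, limma adjusted p = 0.0765) and 0.02 in SAM2 (95% interval -0.14 to 0.17, limma adjusted p = 0.83). The SAM2 value was -0.0066 under quantile normalization and -0.05 without Empty replicate 2. The SAM1 value passed the threshold under quantile normalization (0.18, limma adjusted p = 0.0358), under equal totals (0.29, limma adjusted p = 0.00181), without SAM1 replicate 2 (0.23, limma adjusted p = 0.00308) and without Empty replicate 1 (0.22, limma adjusted p = 0.0141). SAM2 minus SAM1 was -0.13 (95% interval -0.29 to 0.03, limma adjusted p = 0.134), and it passed the threshold under quantile normalization (-0.19, limma adjusted p = 0.0381), under equal totals (-0.17, limma adjusted p = 0.0485) and without SAM1 replicate 2 (-0.22, limma adjusted p = 0.00752).

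Met fell in SAM1 and rose in SAM2. Its normalized counts were 5099, 4559.8 and 4973 in empty vector, 4391, 3987 and 4342 in SAM1, and 5826, 5677 and 5884.5 in SAM2. The groups did not overlap, with SAM1 below the controls and SAM2 above them. The log2 fold change was -0.20 ± 0.05 in SAM1 (limma adjusted p = 0.00132), a call lost under equal totals (-0.06, limma adjusted p = 0.224), and 0.25 ± 0.05 in SAM2 (limma adjusted p = 0.000262). The lines differed by 0.45 (95% interval 0.35 to 0.55, limma adjusted p = 2.16e-06). Pooling the lines gave 0.02 (95% interval -0.28 to 0.33, limma adjusted p = 0.891), a value whose sign changed with the tool used.

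**Figure D2:**
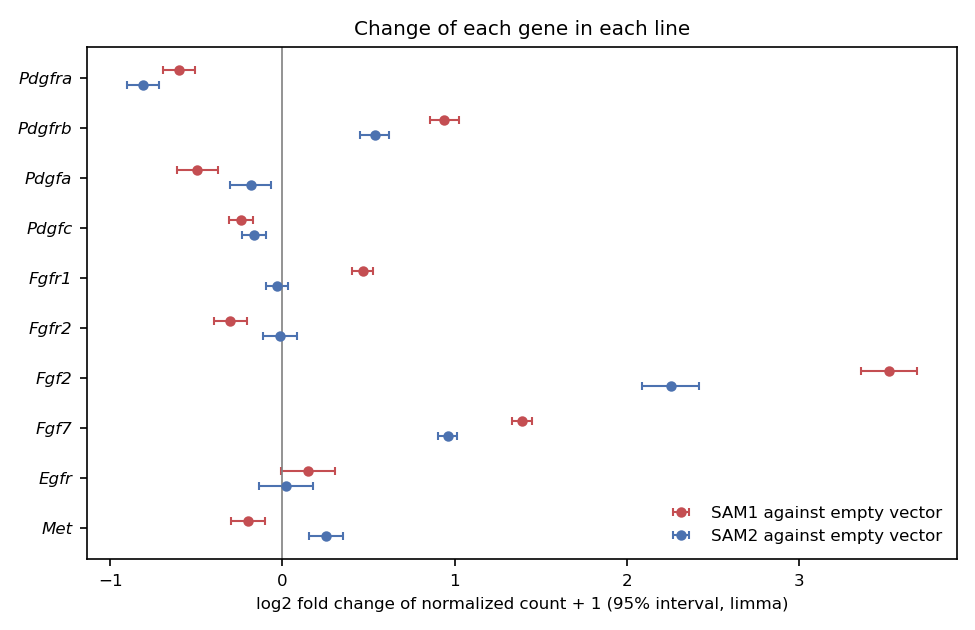
Log2 fold change against empty vector (horizontal axis, on log2 of normalized count + 1) of the 10 genes in SAM1 and SAM2. Points are limma estimates and bars their 95% intervals. Fgf2 and Fgf7 lie far to the right in both lines, Pdgfra and Pdgfrb lie on opposite sides of 0, and Met is below 0 in SAM1 (-0.20) and above it in SAM2 (0.25).

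Within groups, several receptors shared a pattern over libraries. Replicate 2 was the lowest empty vector library and the lowest SAM1 library for Pdgfra, Pdgfrb, Fgfr2, Egfr and Met, and Fgf2 was also lowest there in all groups. Pdgfa was highest in replicate 2 in all groups. For Egfr these differences were as large as those between groups, with an SD of 181 around 1936 in empty vector and of 211 around 2148 in SAM1.

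Levels were compared between genes as normalized counts per kilobase of merged exons. Fgfr1 was the highest of the 10 genes in every group, at 3113 ± 99.0 per kilobase in empty vector, 4297 ± 62.8 in SAM1 and 3045 ± 34.0 in SAM2. Fgf7 came next, at 1060.04 ± 9.41, 2779 ± 50.5 and 2059.9 ± 29.0 per kilobase. Pdgfrb was the third in each group, but in empty vector its level of 811 ± 46.8 per kilobase did not differ beyond the spread from that of Pdgfra, at 789 ± 40.7. With the exon length of the canonical transcript, Pdgfra stood above Pdgfrb in empty vector, at 1472 ± 76.0 against 1215 ± 70.1 per kilobase.

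Below these in empty vector came Met at 631 ± 36.5 per kilobase, Pdgfc at 552 ± 10.7, Pdgfa at 278 ± 16.3, Egfr at 168 ± 15.7, Fgfr2 at 139 ± 5.10 and Fgf2 at 18.0 ± 2.13. The library ranges of the neighbours Egfr and Fgfr2 in this order lay apart, at 151.7 to 183 and 133 to 142 per kilobase, but with canonical lengths Fgfr2 stood above Egfr, at 279.7 ± 10.2 against 189 ± 17.7. In SAM1, Pdgfra dropped to the fifth place at 520.1 ± 26.0 per kilobase, below Met at 549 ± 28.5, and these overlapped. Fgf2 moved from the last place to the seventh, at 208 ± 10.2 per kilobase, where it overlapped Pdgfa at 198 ± 12.2 and Egfr at 186 ± 18.3. In SAM2, Pdgfra was the sixth at 449.6 ± 12.5 per kilobase and Fgf2 was again last at 86.2 ± 2.02. By the length of the canonical transcript, Pdgfra was the third, the fourth and the sixth in empty vector, SAM1 and SAM2, and Fgf2 the last, the ninth and the last.

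**Figure D3:**
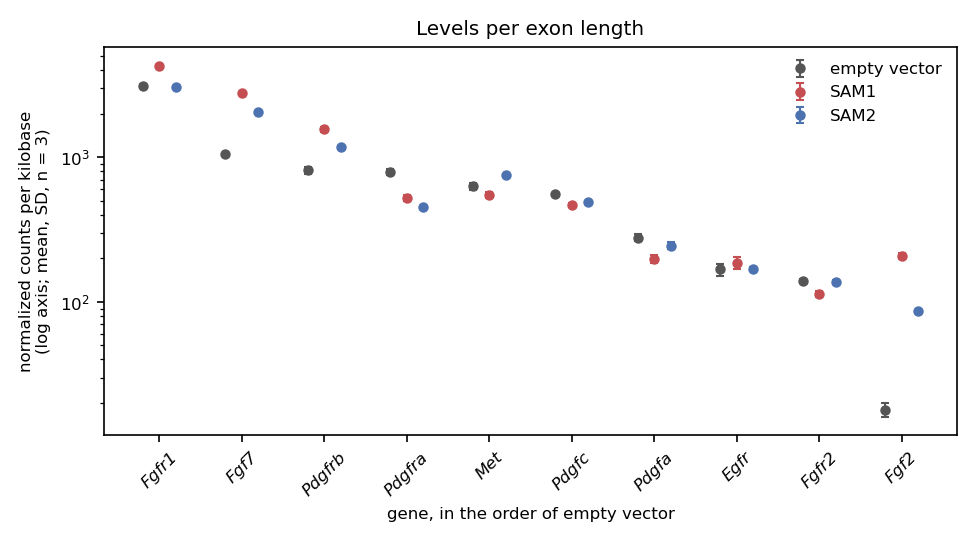
Normalized counts per kilobase of merged exons (vertical log axis; points are means and bars SDs of 3 libraries) of the 10 genes, ordered by their level in empty vector. Fgfr1 is the highest in each group, and Fgf2 spans the widest range, from 18.0 per kilobase in empty vector to 208 in SAM1.

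The genes lie on several chromosomes of GRCm39. By their canonical transcripts these are Pdgfra at chr5:75312922-75358876, Pdgfa at chr5:138961758-138981436, Fgf2 at chr3:37402495-37464257, Pdgfc at chr3:80943668-81121347, Pdgfrb at chr18:61178222-61218133, Fgfr1 at chr8:26008745-26066824, Fgfr2 at chr7:129763471-129868272, Fgf7 at chr2:125876578-125933408, Egfr at chr11:16702198-16868158 and Met at chr6:17463749-17573979. Each gene was set beside its neighbours.

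The genes within 2 Mb of Fgf2 had a median log2 fold change of 0.35 in SAM1 and 0.30 in SAM2 (25 genes), well under the values of Fgf2 itself. Among them, 13 were higher and 4 lower in SAM1, where 37.3% of all genes were higher and 36.9% lower. The highest was Fat4 at 2.25. Around Fgf7 the medians were 0.35 and 0.21 (37 genes), with 24 higher and 3 lower in SAM1, beside the same shares of all genes. Chromosome 2 as a whole had medians of 0.27 and 0.16. Dtwd1, the nearest gene to Fgf7 in the table, had values of 1.28 and 0.78, whereas Galk2 and Cops2, the nearest on the other side, had 0.30 and 0.21 and 0.27 and 0.20.

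Around Pdgfra the medians were -0.28 and -0.09 (27 genes), and the lowest values -1.31 and -0.76, so Pdgfra lay within the range of its neighbours in SAM1 and below it in SAM2, though not within 5 Mb, where the lowest SAM2 value was -1.50. Its neighbour Chic2 had -0.87 and -0.61, whereas Kdr, a VEGF receptor gene of the same receptor cluster, had 4.48 and 1.35. Around Pdgfrb the medians were 0.20 and 0.17 (35 genes). Csf1r, the receptor gene next to Pdgfrb, had 0.16 (limma adjusted p = 0.125) in SAM1 and -1.01 (limma adjusted p = 3.10e-07) in SAM2, so these adjacent receptor genes took different directions in SAM2. Around Fgfr1 the medians were 0.04 and 0.01 (38 genes).

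The Fgfr2 neighbourhood had medians of -0.42 and -0.12 (22 genes), on a chromosome with medians of -0.27 and -0.24. Fgfr2 itself had -0.30 in SAM1 and -0.01 in SAM2. Around Met the medians were 0.64 and 0.37 (13 genes) and around Egfr 0.22 and 0.52 (13 genes). The Pdgfa neighbourhood had -0.09 and -0.18 (83 genes), and that of Pdgfc -0.25 and 0.13 (13 genes). With a window of 5 Mb, 14 of these 20 medians moved by more than the spread between libraries. The SAM1 median turned from -0.25 to 0.06 around Pdgfc and from 0.22 to -0.16 around Egfr, the latter within that spread, and it shrank to 0.14 around Met and to -0.08 around Pdgfra. In SAM2 the median shrank to 0.06 around Egfr and grew to -0.27 around Fgfr2 and to 0.26 around Pdgfc. The medians around Fgf2 (0.28 and 0.28) and Fgf7 (0.35 and 0.17) stayed nearer to those at 2 Mb. The part of copy number in any of these values was not tested.

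**Figure D4:**
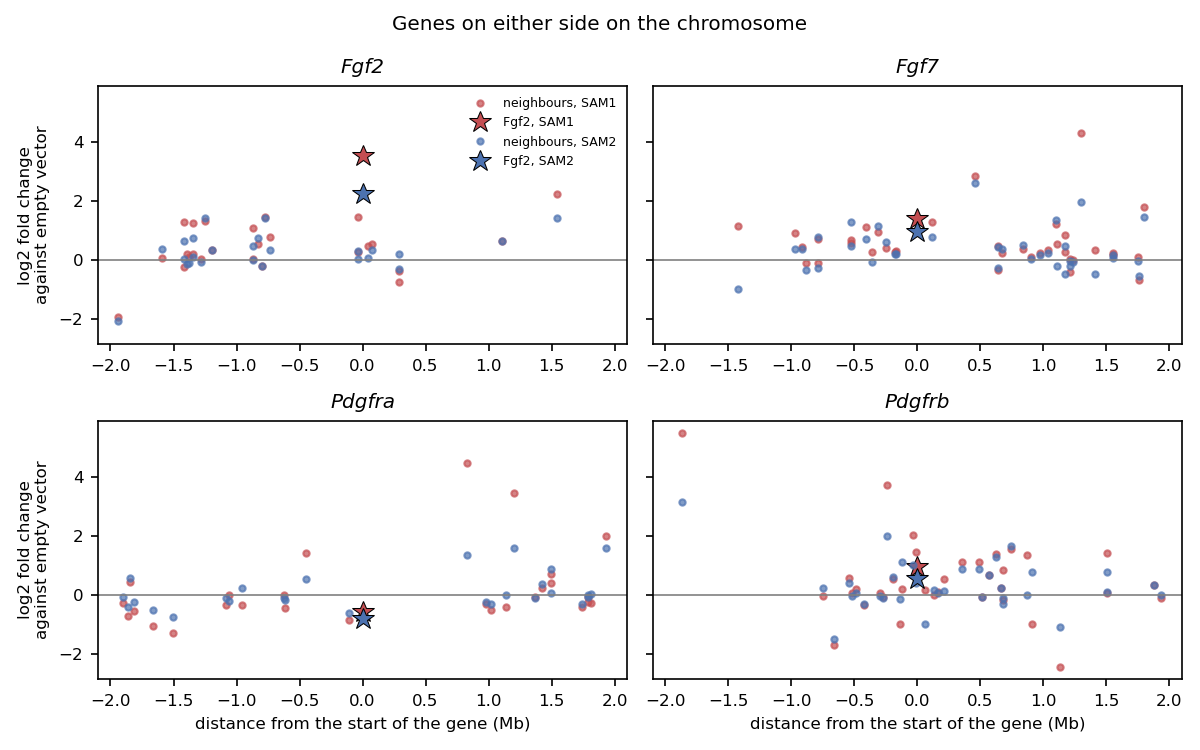
Log2 fold change against empty vector (vertical axis) of genes within 2 Mb of the start of Fgf2, Fgf7, Pdgfra and Pdgfrb (horizontal axis, distance in Mb), with the named gene as a star at 0. Fgf2 stands above all of its neighbours in both lines, and Pdgfra in SAM2 (-0.81) lies below all of its own, while the values of Fgf7 and Pdgfrb lie within the range of theirs.

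For each of the 10 genes, the genes with the nearest profile over the 9 libraries were found among 12125 genes with a mean of at least 50, as the root mean square difference of centred log2 values. The nearest to Fgf2 were Vdr (0.13) and Lpl (0.15). Vdr, the vitamin D receptor, had 408, 4671 and 1729.5 normalized counts in empty vector, SAM1 and SAM2. The nearest to Fgf7 were Cdc20 (0.04) and Uchl3 (0.04), and Cdc20 had 1312, 3415 and 2557 normalized counts. Pdgfra was nearest to Gfod1 (0.03) and Actn1 (0.04), and Pdgfrb to Spry4 (0.04) and Snrnp200 (0.05). Spry4 is one of the feedback inhibitors listed further on. Fgfr1 was nearest to Ncs1 and Gpr137b, Fgfr2 to Bmt2 and Rsf1, Met to Kdm5a and Zfp638, Pdgfa to Rheb, Pdgfc to Mark3 and Mtmr2, and Egfr to Tulp4 and Pcf11. With 3 groups of close replicates, many genes can share such a profile.

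Other genes of the pathways were examined in 9 lists. Of 133 genes on them, 107 were in the table. In SAM1, 44 were higher and 44 lower, where 37.3% of all genes were higher and 36.9% lower. In SAM2, 39 were higher and 47 lower, where the shares of all genes were 35.2% and 35.3%. The counts of the single lists are read against the same percentages. Their median log2 fold change was -0.05 in SAM1 and -0.07 in SAM2, beside 0.01 in SAM1 for all genes. Under equal totals the split was 53 and 35 in SAM1 and 47 and 36 in SAM2. Such a scaling moves all genes of a library alike, so medians of lists are read against the median of all genes. Pooling the lines, 29 were higher and 33 lower, against 26.8% and 27.0% of all genes. The genes named here are those with the largest pooled changes in each list whose 6 SAM libraries all lay on one side of the controls, and others are named where the lines took different directions.

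Of the 3 other PDGF genes, 1 was higher and 1 lower in SAM1, and 1 was higher and 2 lower in SAM2. Pdgfd, a ligand of the beta receptor, fell in both (pooled log2 fold change -1.41, limma adjusted p = 1.16e-06). Pdgfb, the B chain that binds both receptors, rose in SAM1 from 1179 to 2626 normalized counts (log2 fold change 1.16, limma adjusted p = 2.97e-10) and fell in SAM2 to 537 (-1.13, limma adjusted p = 5.52e-10). So with Pdgfrb higher in both lines, its ligands were Pdgfb, opposite between the lines, and Pdgfd, lower in both.

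Of 10 other FGF family genes in the table, 4 were higher and 5 lower in SAM1, and 4 were higher and 4 lower in SAM2. Fgfr3 (1.70, limma adjusted p = 0.00336), Fgf1 (1.37, limma adjusted p = 0.0205) and Fgf11 (1.07, limma adjusted p = 0.0112) were higher with the lines pooled. Fgf5 (-2.55, limma adjusted p = 0.000252), Fgf10 (-2.07, limma adjusted p = 0.000372) and Fgfbp1, which carries FGFs out of the matrix (-2.13, limma adjusted p = 0.00156), were lower. Some of these genes had few counts. Fgf1 had 8.99, 27.6 and 18.1 normalized counts in empty vector, SAM1 and SAM2, Fgf11 had 3.92, 7.45 and 11.4, and Fgfbp1 had 34.0, 8.43 and 6.76. In the same order of groups, Fgfr3 had 18.5, 41.8 and 87.4, and Fgf5 had 74.3, 10.0 and 15.6. The fold changes of these low genes depend on the added pseudocount. Fgf10, the closest relative of Fgf7 in receptor use, thus went the other way from Fgf7 in both lines, with values of -1.54 and -2.61. The metabolic hormone gene Fgf21 fell in SAM1 by a log2 change of -3.07 (limma adjusted p = 5.48e-12) and was higher in SAM2 by 0.33 (limma adjusted p = 0.00706).

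Of 10 EGF family genes, 7 were higher and 2 lower in SAM1, with a median of 0.42, and 3 were higher and 4 lower in SAM2, with a median of 0.08. Erbb3, a receptor with little kinase activity of its own, was higher in the pooled comparison (1.18, limma adjusted p = 0.0203), as was the ligand Hbegf (0.19, limma adjusted p = 0.0476). Erbb2, the partner receptor, was lower (-0.52, limma adjusted p = 9.40e-06), and so was Nrg1, a ligand of ERBB3 (-1.86, limma adjusted p = 1.83e-05). The ligand Btc rose in SAM1 (0.64, limma adjusted p = 0.000446) and fell in SAM2 (-1.13, limma adjusted p = 3.08e-06), and Nrg2 did the same (0.78 and -1.39, limma adjusted p = 0.000725 and 4.54e-06).

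Of 4 HGF family genes, 2 were higher in SAM1, and 2 were higher and 1 lower in SAM2. Hgf, the ligand of Met, rose in SAM1 from 481 to 1203 normalized counts (1.32, limma adjusted p = 7.41e-10) and fell in SAM2 to 348 (-0.47, limma adjusted p = 2.95e-05). Hgf and Met thus had opposite directions in each line. Spint1, an inhibitor of the protease that activates HGF, was higher in both (pooled 2.13, limma adjusted p = 0.0376). The rise was 3.44 in SAM1 (limma adjusted p = 2.65e-10) and 0.82 in SAM2 (limma adjusted p = 0.000361). Its normalized counts were few, at 20.4 in empty vector, 229.9 in SAM1 and 36.9 in SAM2. Of 5 ligand processing genes, 1 was higher and 3 lower in SAM1 and 1 higher and 2 lower in SAM2. Plat, the protease tPA that cuts PDGF-CC, was higher (pooled 0.58, limma adjusted p = 7.64e-05), and Adam17, the sheddase of EGF ligands, was lower (-0.20, limma adjusted p = 0.00416).

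Many FGFs need heparan sulphate to bind their receptors. Of 20 genes of heparan sulphate and co-receptors, 8 were higher and 9 lower in SAM1, and 5 were higher and 10 lower in SAM2, with medians of -0.07 and -0.11. Gpc3 (-2.50, limma adjusted p = 0.00526), Sdc2 (-1.88, limma adjusted p = 8.89e-06) and Gpc4 (-1.05, limma adjusted p = 0.00436), which encode cell surface carriers of heparan sulphate, fell in the pooled comparison. Gpc3 had few counts, at 23.4, 3.93 and 4.12 in empty vector, SAM1 and SAM2, whereas Sdc2 fell from 38935 to 8771 and 12798. Sulf1, which removes sulphate groups from these chains (1.11, limma adjusted p = 4.25e-07), Ndst2, which adds them (0.60, limma adjusted p = 6.36e-05), and the carrier Gpc1 (0.59, limma adjusted p = 0.0049) rose.

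Of 32 adaptors and kinases, 6 were higher and 19 lower in SAM1, and 11 were higher and 18 lower in SAM2, with medians of -0.18 and -0.15. Akt2 (-0.58, limma adjusted p = 5.23e-06) and Pik3cb (-0.56, limma adjusted p = 2.07e-06), kinases of the PI3K pathway, fell in the pooled comparison. Frs3 (0.52, limma adjusted p = 0.0328) and Gab1 (0.49, limma adjusted p = 9.05e-06), docking proteins of FGF and MET receptors, and Pik3r2 (0.39, limma adjusted p = 0.000461) had the largest rises.

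Of 17 feedback inhibitors, 10 were higher and 5 lower in SAM1, and 9 were higher and 4 lower in SAM2, with medians of 0.17 and 0.16, beside 37.3% of all genes higher and 36.9% lower in SAM1 and 35.2% and 35.3% in SAM2. Spry2 (0.76, limma adjusted p = 0.00135), Spry4 (0.74, limma adjusted p = 0.000223) and Spred3 (0.70, limma adjusted p = 0.000104), which restrain the step from receptors to ERK, rose in the pooled comparison. Errfi1, an inhibitor of EGFR, fell (-1.16, limma adjusted p = 1.54e-08). The ERK phosphatase genes Dusp6 and Dusp4 had values of 0.94 and 0.65 in SAM1 (limma adjusted p = 9.72e-12 and 1.53e-09) and of 0.41 and -0.38 in SAM2 (limma adjusted p = 5.83e-08 and 4.75e-07). Dusp5, another ERK phosphatase gene, was lower in both lines. It had 6759 ± 295 normalized counts in empty vector, 6029 ± 271 in SAM1 and 3722 ± 68.6 in SAM2.

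Of 6 genes that ERK signalling is known to induce, 5 were higher in SAM1, with a median of 0.83, and 3 were higher and 2 lower in SAM2, with a median of 0.13. All 6 were called lower in SAM2 than in SAM1, where 29.2% of all genes were lower. Phlda1 had 6097, 7086 and 5309 normalized counts in empty vector, SAM1 and SAM2, and Ier3 had 15635, 15648 and 14637. Etv4 and Etv5, transcription factors downstream of FGF receptors, rose in the pooled comparison (1.70 and 0.91, limma adjusted p = 0.000138 and 5.32e-06). Etv4 had 756 ± 18.6 normalized counts in empty vector, 3199 ± 17.3 in SAM1 and 1890.3 ± 32.4 in SAM2, in the order of Fgf2 and Fgf7. Etv1 rose in SAM1 by 1.95 (limma adjusted p = 1.23e-09) and in SAM2 by 0.25 (limma adjusted p = 0.0454).

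**Figure D5:**
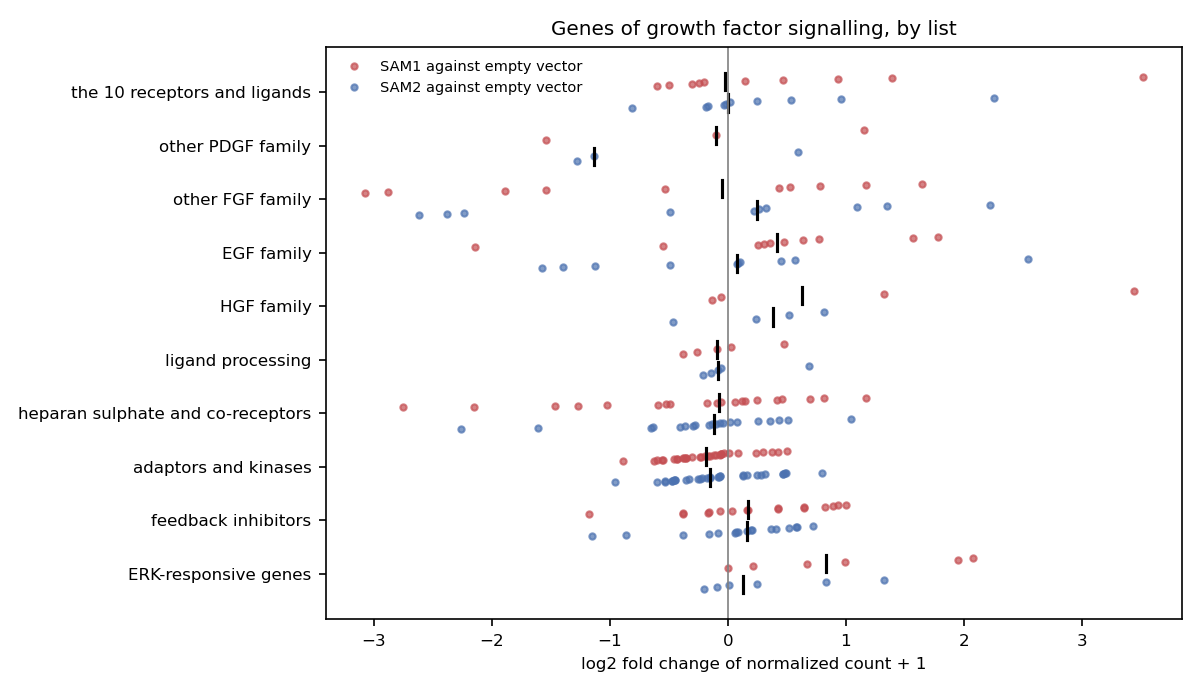
Log2 fold change against empty vector (horizontal axis) of the genes of each list (rows), with SAM1 above SAM2 in each row. Points are genes and black bars medians, for instance 0.83 in SAM1 and 0.13 in SAM2 for the ERK-responsive genes and -0.18 and -0.15 for the adaptors and kinases.

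Markers of other cell types were measured beside these results. Fibroblast markers summed to 1023660 to 1113778 normalized counts in empty vector, 862722 to 918077 in SAM1 and 1147238 to 1185570 in SAM2, with 7 of 10 lower and 2 higher (Vim and S100a4) in SAM1 and 4 lower and 2 higher (Col1a1 and Col3a1) in SAM2, beside 36.9% and 35.3% of all genes lower. Of 7 epithelial markers, 3 were in the table, and their sum went from 388 to 429 in empty vector to 3733 to 3884 in SAM1 and 243 to 275 in SAM2, mostly through Cldn4. Of 6 endothelial markers, 4 were in the table, with sums of 301 to 357, 4613 to 4988 and 638 to 689, mostly through Kdr. Haematopoietic markers (4 of 7 in the table) summed to 878 to 996, 4519 to 4757 and 1748 to 1849.8, mostly through Cd74. Of the muscle markers, Des alone was in the table, at 44.4 to 83.0, 90.8 to 110.6 and 223 to 245 normalized counts. Neural crest and glial markers (2 of 5 in the table) summed to 63.4 to 71.4, 120.5 to 140.6 and 49.2 to 64.9. The part of such cells in the values of the 10 genes was not tested.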

How the data were processed

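PolyA RNA of 9 MEF libraries was measured by paired-end RNA-Seq with a strand-keeping kit. Per the labels and the methods, the authors checked reads with FastQC (0.11.0), aligned them to GRCm39 with TopHat2 and Bowtie2, counted them with HTSeq and divided counts by DESeq2 size factors. What they deposited is these normalized counts, a signal per gene that is not raw counts, and all 15184 genes were above 10 in at least 3 libraries, the filter of the authors. Such values cannot show a change in total RNA per cell.

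The main test was limma (3.58.1, trend) in R 4.3.3 on log2(value + 1), two-sided, with the 3 groups in one fit and a second fit of 6 SAM libraries against 3 controls. Benjamini-Hochberg adjustment ran over all genes with a threshold of 0.05. Values were whole multiples of 1 read (100% within 0.01 reads) in 8 libraries, and edgeR (4.0.16) and DESeq2 (1.42.0) ran on those reads as alternatives. SAM2 replicate 1, whose step lay close to 1, was not entered there. The scripts were tested on simulated data. Exon lengths and positions came from GENCODE vM39, a later release than that of the authors, and upstream windows from the RefSeq table of GRCm38.p6, placed in GRCm39 by exact match.

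The 10 genes and all lists were chosen with earlier results of these data known. Named by rule were all 10 genes, up to 3 genes a list and direction past the threshold in the pooled comparison with separate libraries, and the 2 nearest profiles of each gene. Some genes that meet this rule are not reported here. Genes named for opposite directions between lines, neighbours, markers, Dusp5, Dusp6, Etv1, Phlda1 and Ier3 were chosen after their values were seen. Groups came from the labels, replicate libraries differed beyond sampling noise, and no library was left out.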

Additional observations from a re-analysis of the deposited data

Results flagged for a closer look

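For 8 of the 10 genes the change against the shared controls differed between the lines when the difference itself was tested (limma, adjusted over all genes). On the log2 scale, SAM2 minus SAM1 was -1.27 for Fgf2, -0.50 for Fgfr1, -0.43 for Fgf7, -0.40 for Pdgfrb, -0.21 for Pdgfra, 0.29 for Fgfr2, 0.31 for Pdgfa and 0.45 for Met. For Fgf2, Fgf7, Pdgfrb and Pdgfa the change against the controls had the same direction in both lines and was smaller in SAM2. For Pdgfra it had the same direction and was larger in SAM2, and for Met the directions were opposite. Fgfr1 and Fgfr2 had log2 fold changes of 0.47 and -0.30 in SAM1 and of -0.03 and -0.01 in SAM2. In this comparison 31.1% of all genes were higher and 29.2% lower, so a difference between the lines was common.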

How the results depend on the processing

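Under the 17 alternative settings, the counts of called genes among the 10 genes, the pathway lists and all genes stayed within 1.5 times their values. Leaving out 1 library at a time gave 9 to 10 of the 10 genes in SAM1, 6 to 7 in SAM2, 8 to 9 between the lines and 5 to 6 with the lines pooled. Of the single values of the genes, 646 kept their direction and side of the threshold. The sign changed for Fgfr1 in SAM2, with 0.17 under quantile normalization and 0.072 under equal totals. For Fgfr2 in SAM2, it was 0.090 under equal totals, 0.0037 and 0.00023 without Empty replicate 1 or 3, and -0.044 to 0.0037 over all single libraries left out. For Egfr in SAM2, it was -0.0066 under quantile normalization and -0.051 without Empty replicate 2, with a range of -0.051 to 0.085 over the libraries left out. For Met pooled, it was -0.0061 with edgeR, -0.0057 with DESeq2, -0.023 without Empty replicate 2 and -0.022, -0.015 and -0.025 without SAM2 replicates 1, 2 and 3, with a range of -0.025 to 0.087. Pooled, Pdgfa lost its call without Empty replicate 2 (adjusted p = 0.0874) and, like Pdgfc, under equal totals (0.0834 and 0.0822), and Fgfr1 gained one under quantile normalization (0.0399). The causes were not tested.

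The main fit did not pair libraries by replicate number. After removal of group means, same-numbered libraries correlated by 0.0531 on average (9 pairs, 3 of them over 0.1). Those with different numbers correlated by -0.0265 on average (18 pairs, none above 0.0460). Of 9 libraries, 8 were nearest to one with their own number, so a weak pattern by replicate number was shared between groups. With the replicate number as a block, 10 genes were called in SAM1, 7 in SAM2, 10 between the lines and 6 pooled, with Egfr (adjusted p = 0.0084) added in SAM1. Between the lines, the block added Egfr (0.0223) and Pdgfc (0.0423). The order of levels by canonical transcript length, chosen after seeing the data, moved 6 of the 10 genes in empty vector. Depth limited Fgf2 most, at 105 to 119 reads in the controls.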
